A study of Mus musculus with 15 samples.

Results

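A set of 175 promoters lost the most FAIRE signal in mouse fibroblasts sampled 6 h after ultraviolet irradiation, and most also had less H3K27ac. Relative to the other genes of each library, the RNA of their genes showed no common direction. The promoters were chosen from the pooled FAIRE reads themselves: of 21881 annotated promoters, 7776 held at least 50 reads in the untreated pool, and 175 of these (2.25%) had a log2 ratio of irradiated to untreated reads, with 16 reads added to each, of -1.2 or less. The FAIRE values of these promoters are therefore a description, with no test. The H3K27ac and RNA values come from other libraries and took no part in the choice.

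The cells were NIH3T3, an established mouse embryonic fibroblast line grown in medium with 10% fetal bovine serum. Untreated cells were compared with cells irradiated with UV-C light (254 nm, 80 J/m2) and then kept for 6 h in fresh medium containing DMSO at a dilution of 1 to 2000. Washing, a medium change or DMSO for untreated cells is not stated, so irradiation and these steps cannot be told apart. FAIRE and H3K27ac were each measured in 2 untreated and 2 irradiated samples, with 1 input DNA sample, and RNA in 3 untreated and 3 irradiated samples.

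FAIRE recovers DNA that is poorly crosslinked to protein, and so enriches for the nucleosome-depleted stretches found at active promoters. Acetylation of histone H3 at lysine 27 (H3K27ac) sits on the nucleosomes beside active promoters and enhancers. UV-C light links neighbouring pyrimidine bases into lesions that block RNA polymerase II, and irradiated fibroblasts reduce the synthesis of many transcripts while they induce stress and p53 target genes. A change in steady RNA level also depends on how long each transcript lasts, so a promoter and its RNA need not move together within hours.

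FAIRE and H3K27ac values are sums over both samples of each condition, so their differences carry no replicate error and no test. Reads in promoters were 1032412 in the untreated and 637080 in the irradiated FAIRE pool, and 4015279 and 4447997 in the H3K27ac pools. The RNA libraries held 14211528 to 22032701 counts. Irradiated replicate 1 detected 17607 genes, against 18350 to 18787 in the other 5 libraries, and replicate 1 of each group stood furthest from the others of its group (chi-square per degree of freedom of 35.4 to 52.1 for pairs with replicate 1, against 5.06 and 15.2 for the other pairs). No label ties the samples to separate cultures, so the spread behind each p-value may be technical. Of 14 fibroblast markers, 13 reached 1 CPM (TMM-scaled counts relative to library size) in every library, with Fap the exception. Of 16 markers of other cell types, Krt14 and Ttn did so, and the list's summed level was 35.2 to 66.6 CPM in untreated and 26.2 to 73.1 CPM in irradiated libraries, with no marker at 0 in all 6. In bulk samples, fewer cells of a type and less RNA per cell cannot be told apart.

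The 6 sequences that follow are examples picked by RNA call or by read number, and do not stand for the set. They are 3 whose genes fell in RNA (Gas1, Cdc25b, Avpi1) and 2 whose genes rose (Ptms, Rcn3). The last is the promoter with the most untreated FAIRE reads (Eif2ak3). Each gene has a single RefSeq promoter entry, and Rtl1, Setd8 and Lgals1, with lower ratios than some of these, are not shown because they do not. Each runs from 250 bases before to 50 bases after the RefSeq gene start in GRCm38.p6, 5′ to 3′ on the gene's strand. The position of the authors' promoter windows of 1000 bp relative to the gene start is not given in the sources used here. Capitals mark matches, on either strand, to CCAAT (the box bound by NF-Y), GGGCGG (the GC box bound by Sp1-type factors), GGAATG (TEAD) or TGANTCA (AP-1).
Gas1, chr13:60177486-60177785, minus strand: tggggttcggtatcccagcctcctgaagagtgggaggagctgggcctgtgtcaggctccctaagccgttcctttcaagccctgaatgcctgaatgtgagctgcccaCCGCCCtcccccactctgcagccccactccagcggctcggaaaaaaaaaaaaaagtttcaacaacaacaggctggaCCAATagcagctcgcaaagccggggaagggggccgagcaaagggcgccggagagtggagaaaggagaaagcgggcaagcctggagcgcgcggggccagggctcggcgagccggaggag
Cdc25b, chr2:131186698-131186997, plus strand: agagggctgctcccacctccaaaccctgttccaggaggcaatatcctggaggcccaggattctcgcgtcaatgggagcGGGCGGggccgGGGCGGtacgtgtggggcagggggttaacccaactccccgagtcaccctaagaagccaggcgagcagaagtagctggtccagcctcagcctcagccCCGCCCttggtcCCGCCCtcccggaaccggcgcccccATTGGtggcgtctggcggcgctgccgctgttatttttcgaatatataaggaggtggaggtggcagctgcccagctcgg
Avpi1, chr19:42128944-42129243, minus strand: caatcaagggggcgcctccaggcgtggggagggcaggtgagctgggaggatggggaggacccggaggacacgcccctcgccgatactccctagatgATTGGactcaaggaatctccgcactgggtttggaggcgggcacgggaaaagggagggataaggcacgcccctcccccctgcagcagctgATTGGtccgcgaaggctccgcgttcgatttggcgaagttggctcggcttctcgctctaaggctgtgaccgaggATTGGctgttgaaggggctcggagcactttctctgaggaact
Ptms, chr6:124917897-124918196, minus strand: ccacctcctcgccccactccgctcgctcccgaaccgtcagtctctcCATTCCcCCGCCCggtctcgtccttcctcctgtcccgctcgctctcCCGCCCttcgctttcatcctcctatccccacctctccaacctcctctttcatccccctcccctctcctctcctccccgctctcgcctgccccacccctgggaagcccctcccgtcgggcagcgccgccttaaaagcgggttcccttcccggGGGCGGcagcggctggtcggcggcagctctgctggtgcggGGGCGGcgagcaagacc
Rcn3, chr7:45092164-45092463, minus strand: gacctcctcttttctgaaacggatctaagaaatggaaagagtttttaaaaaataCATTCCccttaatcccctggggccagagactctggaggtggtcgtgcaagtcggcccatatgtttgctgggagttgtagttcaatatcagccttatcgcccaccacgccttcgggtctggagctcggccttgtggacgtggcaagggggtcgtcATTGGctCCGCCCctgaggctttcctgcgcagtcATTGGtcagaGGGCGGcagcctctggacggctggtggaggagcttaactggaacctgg
Eif2ak3, chr6:70844265-70844564, plus strand: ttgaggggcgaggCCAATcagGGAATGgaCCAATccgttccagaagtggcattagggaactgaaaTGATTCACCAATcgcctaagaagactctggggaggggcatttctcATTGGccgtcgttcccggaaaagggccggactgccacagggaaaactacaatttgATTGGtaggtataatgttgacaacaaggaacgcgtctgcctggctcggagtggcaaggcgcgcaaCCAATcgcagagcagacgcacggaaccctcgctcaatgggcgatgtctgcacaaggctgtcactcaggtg
No 2 marked matches overlapped. CCAAT occurred 6 times in the Eif2ak3 promoter and 3 times in that of Avpi1, and 37.4% of the 32851 RefSeq promoters of this length hold it at least once. The GC box occurred 4 times each in the Cdc25b and Ptms promoters and is held by 35.7% of all. Counted by gene, CCAAT was held by 42.6% and the GC box by 51.9% of all 16508 matched promoters. Of the 6178 matched promoters with at least 50 untreated FAIRE reads outside the rule, 46.9% held CCAAT and 72.9% the GC box. GGAATG occurred once each in Eif2ak3, Ptms and Rcn3 (14.7% of the 32851), and TGANTCA once, in Eif2ak3 (7.81% of the 32851). These 6 sequences held no match to TGACGTCA (CRE, in 1.79% of all promoters), TATAAA (13.6%), CACGTG (E-box, 7.15%), CCGGAAG (ETS, 8.86%) or the NRF1 motif (0.971%). A match is a description of letters and not of binding. RefSeq sequences were found for 132 of the 175 promoters (75.4%), under the 80% needed for a comparison of base composition or motifs over the whole set, so that comparison is void.

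At the 175 promoters the untreated FAIRE pool held 51 to 308 reads (median 118) and the irradiated pool 6 to 124 (median 36). The log2 read ratio ran from -1.98 up to the limit, with a median of -1.31, beside -0.65 over all promoters with at least 50 reads. The ratio is not corrected for pool depth. The authors' input scales, worked back from the deposited enrichment values, were 0.657 for the untreated and 0.528 for the irradiated pool. They differ by -0.32 on the log2 scale and were taken here as a measure of depth. With the irradiated reads scaled for that difference, the median was -1.09 for the 175 promoters and -0.40 for all with at least 50 reads, and 46 of the 175 passed -1.2. At the edge of the rule, Gk5 (76 reads untreated, 24 irradiated), Sardh (99 and 34) and Efemp2 (92 and 31) lay just inside, and Bloc1s3 (131 and 48) and Ctf1 (85 and 28) just outside. No promoter with at least 50 reads reached a ratio of 1.2.

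**Figure D1:**
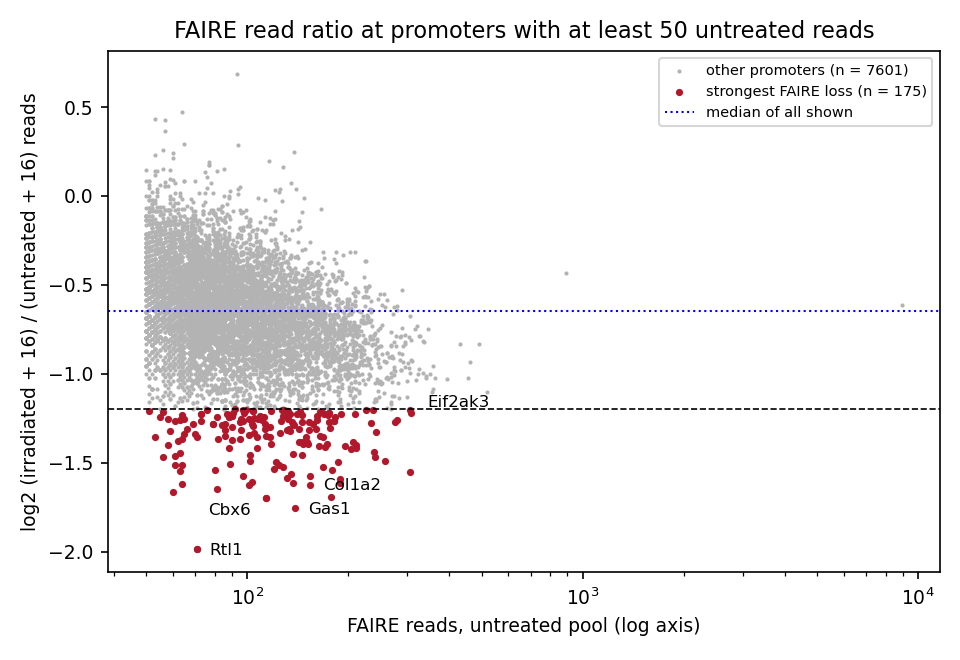
FAIRE read ratio (y axis, log2 of irradiated over untreated reads with 16 added to each) against untreated FAIRE reads (x axis, log scale) for 7776 promoters. Each point is 1 promoter, red points are the 175 chosen by the rule, the dashed line is the limit of -1.2 and the dotted line the median of -0.65, and the red points extend down to -1.98 at Rtl1.

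The lowest ratios belonged to genes of unlike roles. Rtl1, a retrotransposon-derived imprinted gene, and the microRNA gene Mir3071 shared nearly the same reads (71 untreated and 6 irradiated), as did Cbx6, a Polycomb chromodomain gene, and Npcd (114 and 24). Tmppe and Glb1 formed one more pair of neighbouring rows with nearly the same reads (61 and 63 untreated, 11 each irradiated), so the 175 promoters are not all separate measurements. Gas1, a membrane protein that helps receive Hedgehog signals, went from 139 to 30 reads, and Setd8, which methylates histone H4 at lysine 20, from 178 to 44. Dvl1, a relay of Wnt signals, went from 60 to 8 reads, the microRNA gene Mir802 from 81 to 15, the collagen chain gene Col1a2 from 154 to 39, and the adaptor gene Sh2d3c from 101 to 22. The promoters with the most untreated reads were those of the ER stress kinase gene Eif2ak3 (308 to 123), the apoptosis inhibitor gene Birc6 (306 to 124), the galectin gene Lgals1 (306 to 94), the splicing factor gene Wbp11 (279 to 107) and BC049715 (276 to 105). Wbp11 and BC049715 start within 1000 bp of each other on opposite strands, as did 4 more pairs in which both genes were chosen: Hist1h2ag and Hist1h2bj, Atp6v1a and Naa50, Mdh1 and AV249152, and 1700025E21Rik and Tmem209.

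H3K27ac was lower after irradiation at most of the same promoters. Enrichment is the log2 value over input as the authors deposited it, and differences subtract the untreated from the irradiated pool. The difference was below 0 at 141 of 175 promoters (80.6%), beside 43.6% of the 7601 promoters with at least 50 FAIRE reads that did not meet the rule. Its median was -0.62 (quartiles -0.97 and -0.14, range -2.52 to 1.22), beside 0.09 for those 7601 and -0.01 over all promoters. A loss of 1 or more was found at 41 of the 175 (23.4%), beside 4.48% of all promoters with at least 50 FAIRE reads and 3.43% of all promoters. A gain of 1 or more was found at 1 (0.571%), beside 4.39% and 2.38%. The median untreated H3K27ac level was 364 reads, beside 360 at the other 7601, and after irradiation it was 236 beside 377. The 95% counting interval of the depth-scaled H3K27ac read ratio lay below 1 at 121 of the 175 promoters, beside 30.7% of all promoters with at least 50 FAIRE reads, above 1 at 19, beside 41% of them, and included 1 at 35. These intervals cover counting error only.

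**Figure D2:**
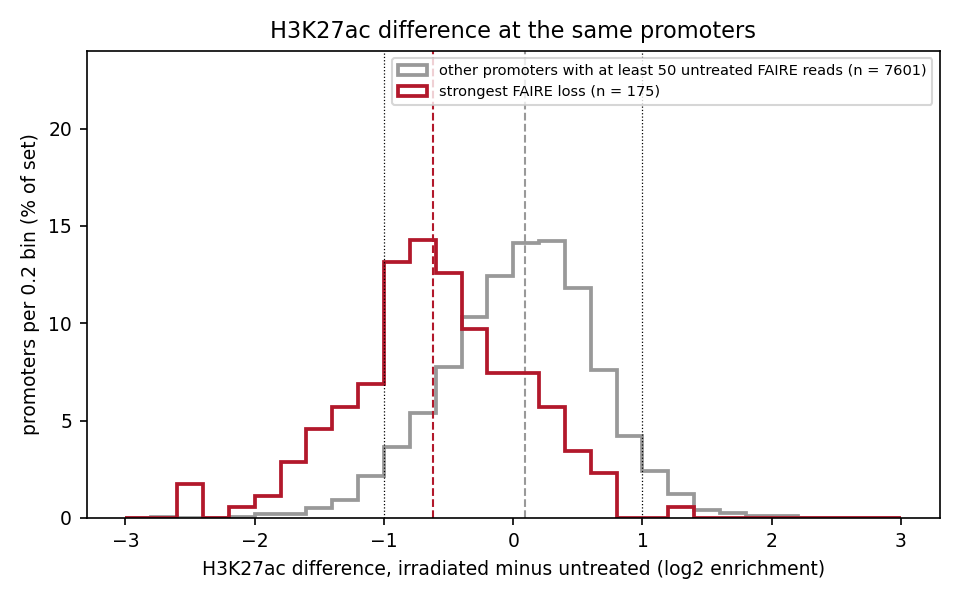
Share of promoters (y axis, % of each set per 0.2 bin) by H3K27ac difference (x axis, irradiated minus untreated log2 enrichment) for the 175 promoters with the strongest FAIRE loss (red) and the other 7601 with at least 50 untreated FAIRE reads (grey). Dashed lines mark the medians of -0.62 and 0.09, and dotted lines mark -1 and 1.

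The share with an H3K27ac loss followed the size of the FAIRE ratio over all promoters with at least 50 reads. It was 23.4% in the 175, 14.2% of the 537 promoters with a ratio from -1.2 to -1.0, 6.01% of 1414 from -1.0 to -0.8, and 0.565% of the 354 above -0.2. The share with a gain ran the other way, from 0.571% to 21.2%. The median difference moved with it, from -0.62 through -0.29 and -0.10 to 0.53 in the same 4 classes. The shares changed from class to class with no step at the limit of -1.2. Within untreated FAIRE reads of 50 to 100, a loss was found at 33.9% of 62 chosen promoters and 4.89% of 4768 others. Within 100 to 150 reads the shares were 24.6% of 61 and 2.79% of 1865, and within 150 to 400 reads 9.62% of 52 and 2.29% of 961. Across the 175 promoters the FAIRE ratio and the H3K27ac difference had a Pearson r of 0.35 and a Spearman coefficient of 0.28. This is a description over promoters that come from the same 4 pools and partly share windows.

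**Figure D3:**
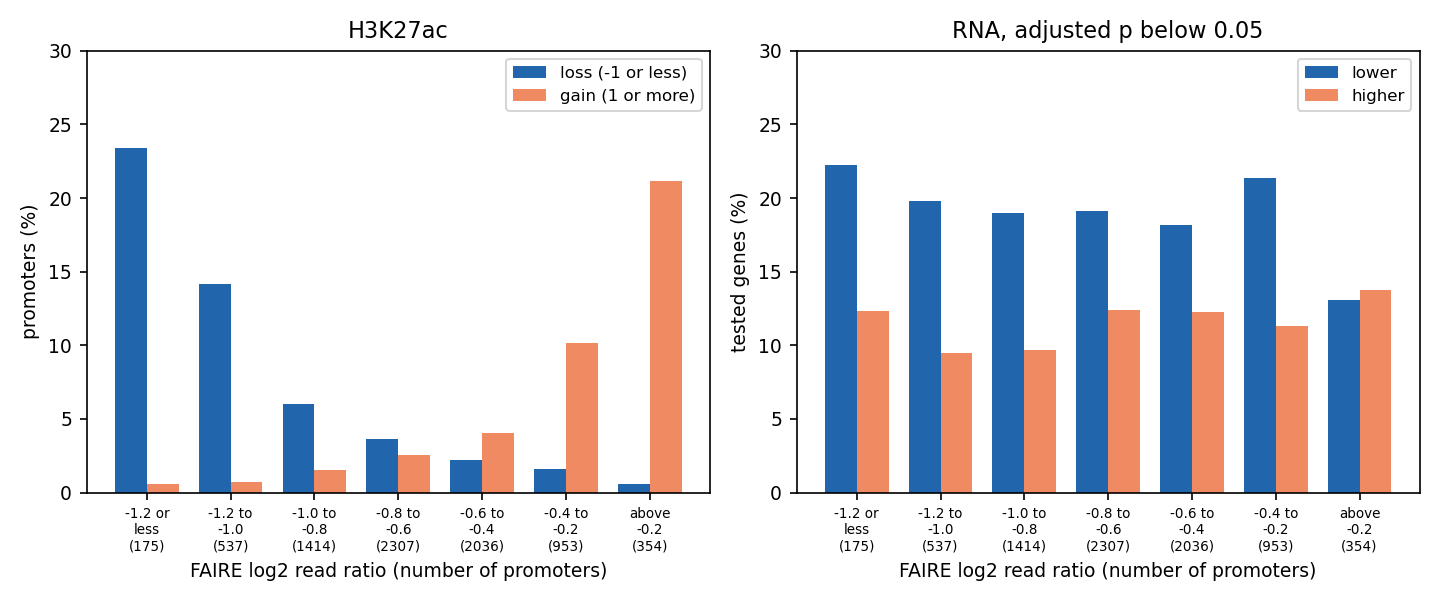
Left, share of promoters (y axis, %) with an H3K27ac loss or gain of at least 1 in each class of FAIRE ratio (x axis, with the number of promoters per class). Right, share of tested genes (y axis, %) called lower or higher in RNA in the same classes, where H3K27ac loss falls from 23.4% to 0.565% while the share lower in RNA stays between 13.1% and 22.2%.

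The deepest H3K27ac losses lay at genes with and without an RNA call: of the 38 tested genes with a loss of 1 or more, 25 had no call, as did 106 of all 162. The window shared by Cbx6 and Npcd held 668 H3K27ac reads untreated and 104 irradiated, a difference of -2.52 and a depth-scaled ratio of 0.154 (95% counting interval 0.124 to 0.190). Cbx6 RNA was 236, 296 and 251 CPM untreated and 284, 216 and 262 CPM irradiated (log2 fold change -0.04, edgeR adjusted p = 0.969), with overlapping groups, and Npcd was listed at 0 in every library. Wisp2 (Ccn5), a secreted matricellular protein of the CCN family, went from 520 to 85 H3K27ac reads (-2.41), with RNA at 136, 248 and 236 CPM untreated and 187, 231 and 230 CPM irradiated, with overlapping groups and no call (log2 fold change 0.07). Acly, which makes cytosolic acetyl-CoA from citrate, went from 459 to 111 reads (-1.91), and its RNA went from 549 ± 117 to 474 ± 52.1 CPM (SD, n = 3 each) without a call. Ptgfr, the receptor for prostaglandin F2 alpha, went from 905 to 200 reads (-2.10) and its RNA fell as well. Next came Islr (-1.85), C1rl (-1.79) and Rassf2 (-1.69), without an RNA call, then Rtl1 (-1.67), Hist1h2af (-1.63) and 6330416G13Rik (-1.55), all called lower in RNA, and the mitochondrial isocitrate dehydrogenase gene Idh2 (-1.51), without a call.

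The H3K27ac difference was above 0 at 34 promoters despite their FAIRE ratio. Poldip3, a nuclear RNA export factor, held 567 reads untreated and 1348 irradiated (1.22, depth-scaled ratio 2.36, interval 2.13 to 2.60) and was the 1 promoter past a gain of 1. Its RNA was 163, 192 and 159 CPM untreated and 144, 118 and 116 CPM irradiated, lower in every irradiated library but without a call (edgeR adjusted p = 0.126). Next came Rnu12, a small nuclear RNA of the minor spliceosome (939 to 1642 reads, 0.79), Wbp11 (495 to 850, 0.75), BC049715 (481 to 793, 0.70) and the deubiquitinase gene Otud6b (90 to 147, 0.61). Wbp11 RNA fell from 81.8 ± 8.53 to 48.8 ± 13.6 CPM (SD, n = 3 each, log2 fold change -0.74, edgeR adjusted p = 0.0146) while its promoter gained H3K27ac reads. That call was lost in 2 of 12 alternative fits.

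RNA changes of the genes went both ways. Of the 175, 163 were in the RNA tables and 162 had enough counts to test. By edgeR's quasi-likelihood test with Benjamini-Hochberg adjustment over all 14925 tested genes, 20 of the 162 were higher (12.3%) and 36 lower (22.2%), and 106 had no call. Over all tested genes 7.7% were higher and 12.4% lower. Among the 7053 tested genes whose promoters also held at least 50 untreated FAIRE reads, 11.6% were higher and 19% lower, so the shares of the 162 genes lay near that background. With at least a 2-fold change required, 4 of the 162 were higher and 18 lower, beside 2.34% and 7.85% of those 7053. The groups did not overlap in CPM for 84 of 162 genes, beside 33.9% of all tested genes and 48.2% of those 7053. The median log2 fold change was -0.01 (quartiles -0.56 and 0.40), beside -0.01 over all tested genes. Fold changes are relative to the other genes of each library, so a shift shared by most genes would not show. Leaving out 1 library moved the number higher between 12 (without irradiated replicate 3) and 33 (without untreated replicate 1, with 32 without untreated replicate 2), and the number lower between 23 (without irradiated replicate 3) and 45. Scaling by library totals alone shifted the median over all genes to -0.24 and the split to 18 higher and 54 lower, so 25% of calls were higher in place of 35.7%.

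Most of these genes were well expressed: their untreated mean was under 1 CPM for 2, from 1 to 10 for 20, from 10 to 100 for 87, from 100 to 1000 for 48 and above that for 6, up to 7188 CPM for Col1a2. Levels of the other genes with at least 50 untreated FAIRE reads at the promoter were not compared. Of those others in the RNA tables, 6891 of 6930 had enough counts to test, beside 162 of 163 here. Among the 38 tested genes with an H3K27ac loss of 1 or more, 8 were lower, 5 higher and 25 without a call. Among 95 with a smaller decrease, 22 were lower and 12 higher, and among 29 with a difference above 0, 6 were lower and 3 higher. The shares lower were 21.1%, 23.2% and 20.7%. Across the 162 genes the H3K27ac difference and the RNA log2 fold change had a Pearson r of 0.09 and a Spearman coefficient of 0.03, and the FAIRE ratio and the RNA change 0.08 and 0.05, as descriptions over genes measured in the same libraries.

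**Figure D4:**
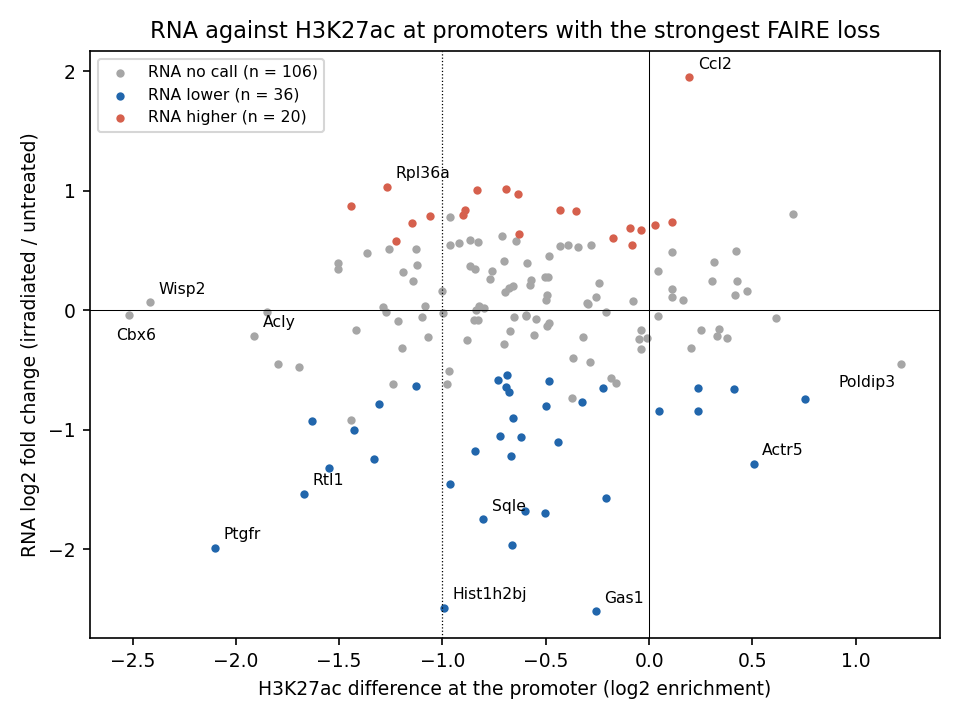
RNA log2 fold change (y axis, irradiated over untreated) against the H3K27ac difference at the promoter (x axis, log2 enrichment) for 162 genes, coloured by RNA call (36 lower, 20 higher, 106 without a call). Points left of the dotted line lost at least 1 in H3K27ac, and Cbx6 and Wisp2 sit furthest left with RNA changes of -0.04 and 0.07.

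The deepest fall in RNA belonged to Gas1, at 246, 557 and 468 CPM in the untreated and 52.0, 87.0 and 83.1 CPM in the irradiated libraries. Every irradiated value lay below every untreated one, and replicate 1 was lowest in both groups. The log2 fold change was -2.52 (SE 0.29, edgeR adjusted p = 9.69e-06), while H3K27ac at its promoter moved little (407 to 339 reads, -0.26). Axin1, Fzd2 and Gsk3b of the Wnt pathway fell too. Axin1, the scaffold that holds the beta-catenin destruction complex, was at 108, 117 and 98.0 CPM untreated and 40.8, 30.7 and 28.4 CPM irradiated (log2 fold change -1.70, SE 0.19, edgeR adjusted p = 9.54e-06). Fzd2, a Wnt receptor, was at 67.7, 92.9 and 79.4 CPM untreated and 32.4, 27.2 and 28.2 CPM irradiated (log2 fold change -1.45, edgeR adjusted p = 2.63e-05). Gsk3b, the kinase of the destruction complex, went from 94.1 ± 6.51 to 60.6 ± 12.8 CPM (SD, n = 3 each, log2 fold change -0.63, edgeR adjusted p = 0.0257), a call lost in 5 of 12 alternative fits, and its promoter lost H3K27ac (611 to 272 reads, -1.13). Dvl1 and Tcf7l2, a transcription factor at the end of the pathway, showed RNA changes of 0.11 and 0.13 without a call, with H3K27ac differences of 0.11 and 0.42. In the list of Wnt and Hedgehog genes, 6 of the 21 with at least 50 untreated FAIRE reads (28.6%) were among the 175 promoters, beside 2.25% of all such promoters. Over the list's 36 tested genes 10 were lower, Gas1, Axin1, Fzd2 and Gsk3b among them, and 0 higher in RNA, with a median of -0.17. Of all tested genes 12.4% were lower and 7.7% higher. Of the 7053 with at least 50 untreated FAIRE reads at the promoter, 19% were lower and 11.6% higher. This list is short, is 1 of 23 lists, and its shares carry no test.

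Ptgfr RNA was at 81.4, 239 and 199 CPM untreated and 24.7, 49.4 and 57.1 CPM irradiated, again with replicate 1 lowest in both groups and no overlap (log2 fold change -1.98, SE 0.34, edgeR adjusted p = 3.81e-04). Sqle, which encodes squalene epoxidase of cholesterol synthesis, was at 212, 332 and 271 CPM untreated and 83.7, 78.0 and 81.2 CPM irradiated (log2 fold change -1.75, edgeR adjusted p = 1.73e-05), with 484 and 272 H3K27ac reads (-0.80). Eif2ak3, the gene of the ER stress kinase PERK, was at 44.6, 42.5 and 35.5 CPM untreated and 14.4, 12.1 and 11.9 CPM irradiated (log2 fold change -1.68, edgeR adjusted p = 4.35e-06), with 415 and 270 H3K27ac reads (-0.60). The irradiated values of Sqle and Eif2ak3 lay close together and well below every untreated one. Rtl1, at the lowest FAIRE ratio, was at 28.3, 25.7 and 28.5 CPM untreated and 10.6, 8.48 and 9.37 CPM irradiated (log2 fold change -1.53, edgeR adjusted p = 9.74e-06), and H3K27ac in its window went from 294 to 82 reads (-1.67). As background, Rtl1 has an antisense partner gene that carries microRNAs, and reads from the strands cannot be told apart without stranded counting, which the labels do not state.

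All 4 replication-dependent histone genes among the 175 fell in RNA. They came from 38 such genes with at least 50 untreated FAIRE reads (10.5%), beside 2.25% of all such promoters, with no test. Hist1h2bj was at 35.6, 33.5 and 28.0 CPM untreated and 6.62, 6.12 and 4.57 CPM irradiated (log2 fold change -2.49, SE 0.20, edgeR adjusted p = 2.13e-07). Its divergent neighbour Hist1h2ag was at 6.11, 7.23 and 6.84 CPM untreated and 0.928, 1.55 and 2.66 CPM irradiated (log2 fold change -1.96, edgeR adjusted p = 4.71e-04). The linker histone gene Hist1h1c fell by 1.57 and Hist1h2af fell by 0.93 on the log2 scale (edgeR adjusted p = 1.50e-05 and 1.10e-03). The same direction held over most of the family: 49 of its 53 tested genes were lower and 1 higher. Of all tested genes, 12.4% were lower and 7.7% higher. The fall of these 4 genes was thus shared with the rest of the family. Near-identical coding sequences make the counts of single histone genes uncertain. H3K27ac at these promoters ranged from 44 reads (Hist1h2ag) to 320 reads (Hist1h1c) untreated, with a difference of -1.63 at Hist1h2af, -0.99 at Hist1h2bj, -0.66 at Hist1h2ag and -0.21 at Hist1h1c. H2afx, the variant histone phosphorylated at DNA breaks, also fell, by 0.84 on the log2 scale (edgeR adjusted p = 2.29e-03), with 189 and 197 H3K27ac reads.

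Further single genes also fell. The mitotic phosphatase gene Cdc25b fell by 1.24 on the log2 scale (58.5 ± 14.6 to 24.7 ± 6.00 CPM, SD, n = 3 each, edgeR adjusted p = 4.41e-04), with H3K27ac reads of 309 and 114 (-1.33). Its relative Cdc25c had no call (0.26). The initiator caspase gene Casp9 fell by 0.68 (13.2 ± 1.38 to 8.22 ± 0.54 CPM, edgeR adjusted p = 0.0143), a call lost in 5 of 12 alternative fits. The heat shock factor gene Hsf2 fell by 0.80 (edgeR adjusted p = 3.73e-03) and the chromatin remodeller subunit gene Actr5 by 1.28 (edgeR adjusted p = 2.86e-04), the latter with a rise from 190 to 278 H3K27ac reads. Avpi1, shown above with 3 CCAAT matches, fell by 0.64 (edgeR adjusted p = 0.0226) and lost its call in 5 of 12 alternative fits. Setd8 fell by 0.54 (edgeR adjusted p = 0.0414) and lost it in 7. Other genes called lower included Zfp524, Arhgap24, Rgs9bp, Egln2, Fam160b1, Tyw3, Tmem53, Pcdh18, Taf6l, Wbp11, Rfx7, Magi3, Tyk2, Igf2bp3, 6330416G13Rik and 5730409E04Rik. Casp9, Cdc25b, Hsf2, Actr5 and H2afx were picked for this paragraph after their values were seen.

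The promoters of the 20 genes that rose mostly held less H3K27ac, with a difference below 0 at 17 of them and a median of -0.63, much as at the genes that fell (30 of 36, median -0.67) and at all 175. Rpl36a, a protein of the large ribosomal subunit, was at 527, 702 and 548 CPM untreated and 1095, 1232 and 1317 CPM irradiated (log2 fold change 1.04, SE 0.21, edgeR adjusted p = 1.60e-03), while its promoter went from 64 to 12 FAIRE reads and from 212 to 79 H3K27ac reads (-1.27). RNA of ribosomal protein genes rose at large, in 72 of 78 tested, beside 7.7% of all tested genes. Svep1, a large secreted adhesion protein, was at 498, 592 and 635 CPM untreated and 1151, 1109 and 1234 CPM irradiated (log2 fold change 1.02, edgeR adjusted p = 1.47e-03), with 784 and 481 H3K27ac reads (-0.69). Msh5, a meiotic MutS homologue, went from 3.70 ± 0.29 to 7.45 ± 1.19 CPM (SD, n = 3 each, log2 fold change 1.01, edgeR adjusted p = 5.73e-03). In each of these 3 genes every irradiated library lay above every untreated one.

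Smaller rises were seen in Gpx4, which detoxifies lipid peroxides (log2 fold change 0.97, 182 ± 28.4 to 357 ± 9.42 CPM), in the parathymosin gene Ptms (0.87, 174 ± 27.4 to 318 ± 34.4 CPM), in Lgals1 (0.84, 1914 ± 202 to 3433 ± 41.2 CPM), in Hspa2, an HSP70-family chaperone (0.84, 24.99 ± 4.82 to 44.7 ± 5.83 CPM) and in the ER prolyl isomerase gene Ppib (0.83, 74.5 ± 10.4 to 132 ± 10.1 CPM), with SD and n = 3 per group and edgeR adjusted p from 2.13e-03 to 5.22e-03. The Ptms promoter lost H3K27ac (686 to 243 reads, -1.45), and the Lgals1 promoter kept more of it (960 to 712, -0.43). Rcn3, a calcium-binding protein of the secretory pathway, rose by 0.79 and Gapdh, the glycolytic enzyme often used as a reference gene, by 0.73 (edgeR adjusted p = 8.37e-03 and 0.0245), both with H3K27ac losses (-1.06 and -1.15). Gapdh lost its call in 3 of 12 alternative fits, and its many pseudogenes make its count uncertain. The chemokine gene Ccl2 had the highest log2 fold change, 1.95 (SE 0.57, edgeR adjusted p = 0.0207), but overlapping groups: it was at 34.2, 205 and 166 CPM untreated and 104, 628 and 832 CPM irradiated, with replicate 1 lowest in both, and lost its call in 5 of 12 alternative fits. Birc6 rose by 0.72, Efemp2 by 0.64 and the BCL-W gene Bcl2l2 by 0.60 (edgeR adjusted p = 0.0376, 0.0288 and 0.0299), and their calls were lost in 5, 2 and 3 of 12. The other genes called higher were Aldh9a1, Gnb2, Adamtsl4, Txn2, Ndufv3 and Fggy. Of the 56 genes with a call, 8 of 20 higher and 22 of 36 lower kept it in all 12 alternative fits, and none changed sign. The fit without irradiated replicate 3 lost most, 23 of the 56 calls, among them Lgals1, Rcn3, Efemp2, Bcl2l2, Birc6, Gapdh, Wbp11, Zfp524, Arhgap24, Casp9, Avpi1, Gsk3b and Setd8. The fit without untreated replicate 2 lost 12, that without irradiated replicate 2 lost 9, and those without irradiated replicate 1, untreated replicate 1 and untreated replicate 3 lost 4, 4 and 5. Ccl2 was lost without untreated replicate 2 or 3, with DESeq2, with library totals and with a filter of 1 CPM.

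**Figure D5:**
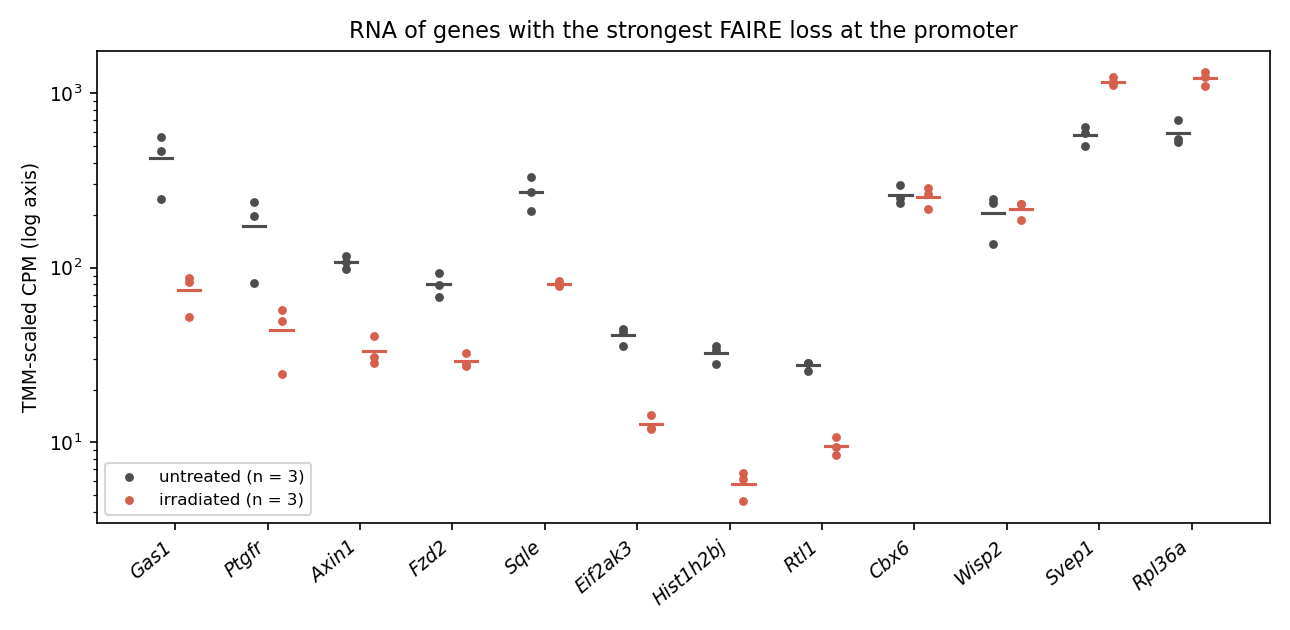
TMM-scaled CPM (y axis, log scale) of 12 genes from the 175 promoters (x axis) in 3 untreated and 3 irradiated libraries, with points for libraries and bars for group means. The groups are apart for the 8 genes that fell, such as Gas1 (means of 423 and 74.0 CPM), and for Svep1 and Rpl36a, which rose, and overlap for Cbx6 and Wisp2.

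The 175 promoters included 5 genes of the extracellular matrix list and 3 of the fibroblast marker list, most of them without an RNA call. Of 24 matrix genes with at least 50 untreated FAIRE reads, 5 were among them (20.8%, beside 2.25% of all such promoters): Col1a1, Col1a2, Col6a2, the collagen crosslinking enzyme gene Lox, and Efemp2, which takes part in elastic fibre assembly. Of 10 fibroblast markers, 3 were (Col1a1, Col1a2 and S100a4). These lists are short and the share carries no test. Col1a2 RNA was at 8018, 7109 and 6436 CPM untreated and 9700, 5078 and 5659 CPM irradiated (log2 fold change -0.08, edgeR adjusted p = 0.942), and its H3K27ac went from 754 to 420 reads (-0.83). Col1a1 was at 3267, 2121 and 1976 CPM untreated and 6362, 2516 and 2461 CPM irradiated (0.62, edgeR adjusted p = 0.192), with H3K27ac from 806 to 489 reads (-0.71). Replicate 1 was the highest of each group for both collagen genes. Col6a2 (684 to 232 H3K27ac reads) had an RNA change of 0.35 and Lox (366 to 458) of 0.25, both without a call. S100a4, a calcium-binding protein of motile fibroblasts, went from 1646 ± 257 to 2457 ± 218 CPM (SD, n = 3 each) without overlap but with an edgeR adjusted p of 0.0524, and H3K27ac at its promoter went from 833 to 530 reads (-0.64). Acta2, smooth muscle actin, had no RNA call (0.53), with 2483 CPM in untreated replicate 1 and 820 to 935 CPM in the other untreated libraries.

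Several gene lists had no promoter among the 175. Immediate early and AP-1 genes had 28 promoters with at least 50 untreated FAIRE reads, with a median FAIRE ratio of -0.31 and a median H3K27ac difference of 1.06, and p53 targets had 21, with medians of -0.38 and 1.02. No promoter of the 33 nucleotide excision repair, 20 TGF-beta and BMP, 25 G1/S and replication, 23 developmental transcription factor, 63 mitochondrial ribosomal, 99 solute carrier, 32 F-box or 5 Hox genes with that many reads was among them either, nor were the single such promoters of the other cell type markers and the sensory receptors. These counts stand beside 2.25% of all such promoters, and in the shorter lists finding none lies near that share. Genes with a symbol beginning in Zfp and a number gave 3 of 195: Zfp524, which fell in RNA (-1.21, edgeR adjusted p = 5.35e-03), Zfp36l2, an RNA-binding protein despite its symbol (-0.57, edgeR adjusted p = 0.0903), and Zfp295, not in the RNA tables. Small RNA genes gave 3 of 59 (Mir3071, Mir802 and Rnu12), and actin and SRF genes 1 of 25 (Acta2). G2/M genes gave 1 of 28 (Cdc25c), RNA polymerase II machinery 1 of 48 (Gtf2a1, RNA -0.23 without a call) and cytosolic ribosomal protein genes 1 of 78 (Rpl36a).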

How the data were processed

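The labels list 15 samples in 7 groups, and 8 columns of other conditions were not used. Build mm9 and the tools MACS2, DESeq2, TopHat and Bowtie 0.12.9 are named, per the submitters' processing notes, with no role given in the sources used here. Gene counts per RNA library and pooled read counts per promoter were deposited by the authors unscaled. The log2 enrichment values were deposited by the authors and equal log2 of (reads + 16) over (scale × input reads + 16). Columns headed DMSO were taken as irradiated from the labels' protocol.

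RNA counts were tested in R 4.3.3 with edgeR 4.0.16 (filterByExpr, TMM, glmQLFit, quasi-likelihood F test, Benjamini-Hochberg adjustment over 14925 genes, threshold 0.05). CPM used TMM-scaled totals. Promoter and RNA rows were joined by symbol. Other values came from Python 3.11.15 with pandas 2.3.3 and scipy 1.17.1. Intervals are exact conditional binomial ones at 95% and cover counting error only. The steps were tested on simulated data. Alternatives used DESeq2 1.42.0, other scalings, filters, library sets and promoter rules.

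Members, the 23 gene lists and tests were chosen with earlier results of these data known. Values are given for the 10 lowest FAIRE ratios, the 5 highest untreated reads, up to 3 promoters on each side of the limit, up to 8 non-overlapping RNA calls per direction, 5 H3K27ac extremes per direction with at least 50 reads, and up to 4 genes per list. Sequences follow the lowest FAIRE ratios among genes called lower, then higher, and the highest reads, over genes with a single RefSeq entry. Islr, C1rl, Rassf2, 6330416G13Rik, Idh2, Fzd2, Cdc25b, Casp9, Hsf2, Actr5, H2afx, Avpi1, Rcn3, Gapdh, Ccl2 and Bcl2l2 are outside the rule for values and were picked after their values were seen. A few items that meet the rules are not reported here.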

Additional observations from a re-analysis of the deposited data

How the results depend on the processing

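The RNA counts moved with the libraries, the call and the scaling. Leaving out 1 library gave 12 to 33 genes of the 175 promoters higher, 23 to 45 lower, and a median log2 fold change of -0.12 to 0.19, whose sign differed between these fits (0.06 without irradiated replicate 2, 0.05, 0.19 and 0.08 without untreated replicates 1, 2 and 3). Over all tested genes the ranges were 585 to 1941 higher and 1139 to 2849 lower, against 1149 and 1854. A 2-fold minimum gave 4 higher and 18 lower of these genes, and 270 and 801 over all tested genes. Library totals alone gave 18 of these genes higher and 54 lower, 3739 lower and 905 higher over all tested genes, and a median of -0.24 for these genes. No low-count filter gave 13 higher, beside 791 over all tested genes. DESeq2 gave 27 higher and 36 lower, beside 1372 and 1812 over all tested genes.

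The promoter rule set the size of the group. Scaling FAIRE reads for depth left 46 promoters, with a median H3K27ac difference of -0.97, 22 losses, 0 gains, and 6 genes higher and 8 lower in RNA. A limit of -1.0 gave 712 promoters (-0.38, 117 losses, 5 gains, 66 higher, 132 lower), and one of -1.5 gave 30 (-1.07, 17 losses, 0 gains, 5 higher, 4 lower). At least 100 reads gave 113 promoters, with 20 losses, 19 genes lower and a median RNA change of 0.059. Adding 1 read gave 823 (-0.44, 139 losses, 3 gains, 78 higher, 159 lower). The enrichment difference gave 67 (-0.80, 23 losses, 9 higher, 13 lower). An H3K27ac threshold of 0.58 gave 92 losses and 5 gains. The median H3K27ac difference was below 0 under all of these rules. The cause of these shifts beyond the changed number of libraries or promoters was not tested.

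Over all genes, replicate numbers did not consistently pair the RNA samples: the same-number correlations of deviations were 0.155, -0.58 and 0.504. Not every sample correlated best with its own number. Correlations over all genes from so few libraries cannot settle pairing at single genes. Replicate 1 was lowest in both groups for Gas1, Ptgfr and Ccl2 and highest in both for Col1a1 and Col1a2. For Sqle it was lowest untreated and highest irradiated. A shared origin of samples with the same number was not tested. The fit with the replicate number as a block called 26 of these genes higher and 38 lower, and 1276 and 2067 of all tested genes, and did not call Setd8. With pooled chromatin reads no sample could be left out for FAIRE or H3K27ac. At promoters near 50 FAIRE reads counting error is widest, and genes of few counts such as Msh5 or Hist1h2ag limit the precision of their folds.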
